A study of Homo sapiens with 6 samples.

Results

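The response of A673 cells to the low dose of THZ1 was described from 2 of the 6 RNA-Seq libraries of the series, 1 from cells given 50 nM THZ1 for 6 h and 1 from cells given the vehicle DMSO for the same time. A673 is an established Ewing sarcoma line that carries the EWS-FLI1 fusion, and both cultures were grown in DMEM with fetal bovine serum and penicillin-streptomycin. Of the 27420 genes with a deposited value, the 11077 with an FPKM above 1 in the DMSO library were taken as active, and all of them enter the counts below. FPKM is the number of fragments of a gene scaled to its transcript length and to the size of the library. The other 4 libraries are A673 with 200 nM THZ1, and SKNMC, another Ewing sarcoma line, with DMSO, 50 nM or 200 nM. Each condition holds 1 library, so no difference could be set against a replicate error, no p-value is given, and single genes that moved little cannot be told from the spread between cultures.

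THZ1 binds covalently to CDK7, the kinase of the CDK-activating complex within the general transcription factor TFIIH. CDK7 phosphorylates the C-terminal domain of RNA polymerase II at the start of transcription and also activates other kinases, among them CDK9 of P-TEFb, which releases paused polymerase into elongation. When transcription is held back for a few hours, the level of an mRNA depends on its synthesis and on its decay, and mRNAs of long life change slowly. EWS-FLI1 is a fusion transcription factor that drives Ewing sarcoma by binding GGAA repeats, where it turns on target genes, while other genes are repressed in its presence.

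The labelled cell type was checked first. All 10 Ewing sarcoma markers were above 1 FPKM in the DMSO library, from 9.15 FPKM for BCL11B to 711 FPKM for CCND1, and their summed level was 1640 FPKM with DMSO and 1390 FPKM with 50 nM THZ1. Of 17 markers of blood, epithelium, endothelium and skeletal muscle, 0 reached 1 FPKM with DMSO and the highest stood at 0.189 FPKM. The listed FPKM values of the THZ1 library summed to 98.5% of the DMSO library. FPKM is a share of a library and holds no read counts, so the absolute depth is unknown. Scaling the libraries to equal 75th percentiles shifted the log2 median over active genes by 0.22, and scaling them to equal ribosomal protein levels shifted it by -0.19. The zero point is thus uncertain by at least that much, and lists are also read against the median of all active genes. A loss of mRNA shared by all genes would not show in these scalings, so they set no upper limit on the uncertainty. Such shares show neither the total RNA per cell nor the number of cells.

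The promoters of the genes that carry the strongest contrast are shown to let their sequences be compared. PRR3 and ZC3H4 were among the genes with the deepest falls, and POLR2A and JUNB among those with the largest rises; the 4 were picked after their values were known. Each sequence is the RefSeq promoter of build GRCh38.p14, from 250 bases before to 50 after the start, written 5′ to 3′ on the gene's strand. The windows are chr6:30556459-30556758 (plus strand) for PRR3, chr19:47113727-47114026 (minus strand) for ZC3H4, chr17:7484116-7484415 (plus strand) for POLR2A and chr19:12791236-12791535 (plus strand) for JUNB. Capitals mark motifs that were searched on both strands. The GC box, which SP factors bind, was searched as GGGCGG and on the other strand appears as its complement. The CCAAT box is the site of the factor NF-Y. A motif like the cyclic AMP response element, which CREB and ATF factors recognise, was searched as TGACGTC. The TATA box, which places the polymerase near the start, was searched as TATAAA.
PRR3: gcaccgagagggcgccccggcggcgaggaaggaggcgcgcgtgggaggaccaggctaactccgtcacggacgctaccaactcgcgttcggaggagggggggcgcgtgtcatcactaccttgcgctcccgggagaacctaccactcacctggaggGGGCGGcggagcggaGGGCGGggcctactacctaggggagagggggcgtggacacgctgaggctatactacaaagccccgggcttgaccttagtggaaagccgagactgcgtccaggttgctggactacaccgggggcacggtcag
ZC3H4: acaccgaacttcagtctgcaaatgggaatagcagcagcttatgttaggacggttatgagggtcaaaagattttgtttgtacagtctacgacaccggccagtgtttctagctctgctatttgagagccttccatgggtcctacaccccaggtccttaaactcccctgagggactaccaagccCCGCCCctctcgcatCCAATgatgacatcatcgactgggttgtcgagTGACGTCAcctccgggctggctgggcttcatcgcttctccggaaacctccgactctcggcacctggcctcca
POLR2A: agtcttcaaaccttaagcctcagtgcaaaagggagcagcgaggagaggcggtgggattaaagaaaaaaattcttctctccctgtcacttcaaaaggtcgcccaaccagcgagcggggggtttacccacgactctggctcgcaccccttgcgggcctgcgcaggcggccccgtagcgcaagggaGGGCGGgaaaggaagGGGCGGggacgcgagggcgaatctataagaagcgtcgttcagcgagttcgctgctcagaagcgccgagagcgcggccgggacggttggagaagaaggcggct
JUNB: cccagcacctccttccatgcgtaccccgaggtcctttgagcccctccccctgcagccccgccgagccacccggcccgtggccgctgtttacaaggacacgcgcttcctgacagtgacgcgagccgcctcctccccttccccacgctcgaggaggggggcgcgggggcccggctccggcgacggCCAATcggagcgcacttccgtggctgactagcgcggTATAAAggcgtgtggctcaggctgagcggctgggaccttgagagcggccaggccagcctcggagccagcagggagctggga
The PRR3 and POLR2A windows each hold 2 GC boxes and no other motif of the search. The ZC3H4 window holds 1 GC box, 1 CCAAT box and a motif like the cyclic AMP response element that reads on both strands over the same letters. JUNB holds 1 CCAAT box and a TATA box. In the deposited hg19 coordinates the genes lie at chr6:30524662-30531500 (PRR3), chr19:47567443-47617009 (ZC3H4), chr17:7387684-7417933 (POLR2A) and chr19:12902309-12904124 (JUNB).

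Most active genes kept an FPKM within 1.5-fold at the low dose, and most of those that changed at least 2-fold went down. Of the 11077 active genes, 1758 (15.9%) were at least 2-fold lower with 50 nM THZ1, 38 (0.343%) were at least 2-fold higher and 7353 (66.4%) changed by less than 1.5-fold. "Fell" and "rose" are used below only for genes past the 2-fold line, on the scale log2((FPKM + 1) / (FPKM + 1)), which understates the change of low genes. At a 1.5-fold line 3527 genes (31.8%) were lower and 197 (1.78%) higher. Falls of at least 4-fold were seen for 152 genes (1.37%), and 0 genes rose that far. With the 75th percentile and ribosomal protein scalings 85 and 18 genes rose, and 1221 and 2362 fell. A lower value, of any size, was listed for 7770 genes (70.1%). The median log2 fold change was -0.27, with the 5th and 95th percentiles at -1.55 and 0.39. The median level of active genes went from 14.1 to 10.1 FPKM, whereas the 100 highest genes of each library held 23.0% of the listed FPKM with DMSO and 26.8% with THZ1. Of the genes that fell, 966 were above 10 FPKM with DMSO, and 52 were lincRNA genes. Among the 16343 genes at or below 1 FPKM with DMSO, 35 were at least 2-fold higher. Close to the line, EIF4A2, ZMYM4 and BET1 lay just inside it, at 49.7%, 47.7% and 47.0% of the DMSO value, and SPATA33, APOL2 and RAB8A just outside, at 45.7%, 46.0% and 48.6%, since the line is drawn on FPKM + 1. In the other direction PAXBP1, BRD2 and ARGLU1 lay just inside at 1.01, 1.02 and 1.02, and MSL2, PNISR and NME2 just outside at 1.00, 0.97 and 0.95.

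**Figure D1:**
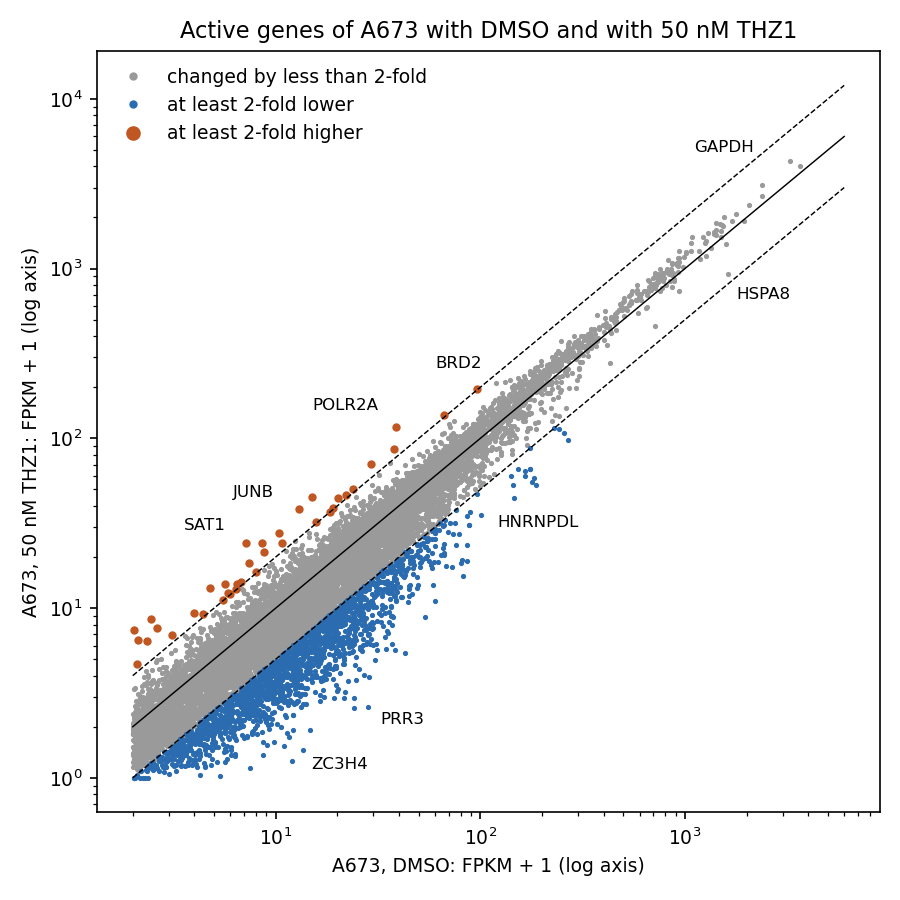
FPKM + 1 of each active gene of A673 with DMSO (x axis) and with 50 nM THZ1 (y axis), both on log axes, 1 point per gene and 1 library per axis; 1 noncoding RNA is not drawn. The solid line marks equal values and the dashed lines a 2-fold change: the 1758 lower genes lie mostly below 50 FPKM, while genes at the top of the range, GAPDH among them, stay near the solid line.

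The deepest falls among genes above 10 FPKM included regulators of RNA, of stress and of cell death. PRR3, a CCCH zinc finger protein, went from 27.1 FPKM with DMSO to 1.61 FPKM, a log2 fold change of -3.43. ZC3H4, which restrains transcription outside genes, went from 12.6 to 0.455 FPKM. EXOSC3, a subunit of the RNA exosome that degrades RNA from its 3′ end, went from 41.8 to 4.45 FPKM. All 3 were left with 10.6% or less of the DMSO value. ZBED5, a zinc finger gene derived from a transposon, went from 23.2 to 1.56 FPKM. TFAP4, a helix-loop-helix transcription factor, went from 10.6 to 0.750 FPKM. DDIT3, which encodes the stress factor CHOP, went from 13.7 to 0.915 FPKM. TNFRSF1A, the TNF receptor, went from 37.2 to 4.66 FPKM. FADD, the adaptor that links such receptors to caspases, went from 27.4 to 2.94 FPKM. PHLDA3, an inhibitor of AKT that p53 induces, went from 26.0 to 3.01 FPKM. DKK1, a secreted WNT antagonist and a gene that EWS-FLI1 represses, went from 23.2 to 1.95 FPKM. The other members were KRTAP4-9 (10.95 to 0.250 FPKM, a hair keratin-associated gene with near-identical copies, so its value is uncertain), TRIM69 (20.5 to 1.96 FPKM), MOB3A (10.0 to 0.548 FPKM), KCNE3 (20.8 to 2.21 FPKM) and GTPBP2 (18.2 to 1.94 FPKM). The 15 changes ran from -3.43 to -2.71, and each of these genes was also at least 2-fold lower in SKNMC at 50 nM.

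The genes that rose were few, and they are given here with their known roles. POLR2A, the largest subunit of RNA polymerase II and the protein whose tail CDK7 phosphorylates, had the largest rise above 10 FPKM, from 37.6 FPKM with DMSO to 116 FPKM, a log2 fold change of 1.60. With 200 nM THZ1 its value was 47.4 FPKM, near the DMSO value. JUNB, a subunit of the AP-1 transcription factor, went from 12.02 to 37.2 FPKM and stood at 51.9 FPKM with 200 nM. RBBP6, a ubiquitin ligase that also takes part in 3′ end formation, went from 28.1 to 69.98 FPKM. NXF1, the receptor that carries mRNA out of the nucleus, went from 36.9 to 85.8 FPKM. BRD2, a reader of acetylated histones, went from 95.4 to 194 FPKM. At 200 nM these last 3 stood below their DMSO values, at 22.5 FPKM for RBBP6, 33.8 FPKM for NXF1 and 75.8 FPKM for BRD2. The kinase DYRK1A went from 22.8 to 49.6 FPKM, and the splicing regulator CELF1 from 65.7 to 135 FPKM. ARGLU1, PAXBP1 and C1orf63, which encode nuclear proteins tied to splicing or chromatin, had 18.1, 17.4 and 21.1 FPKM with DMSO and 37.8, 36.0 and 45.4 FPKM with THZ1. PTPRK, a receptor tyrosine phosphatase, went from 19.1 to 43.7 FPKM. The noncoding RNAs RP11-252A24.7 and SNHG9 went from 14.0 to 43.99 FPKM and from 14.7 to 31.0 FPKM. In SKNMC the first of these showed a log2 fold change of only 0.14, and other genes or copies may share its reads.

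Below 10 FPKM the rising genes included SAT1, the enzyme that acetylates spermidine and spermine, at 6.16 and 23.2 FPKM. HEXIM1, the inhibitor that holds P-TEFb on the 7SK RNA, was at 4.53 FPKM with DMSO and 10.1 FPKM with THZ1, and the Mediator subunit MED26 at 4.95 and 11.1 FPKM. The heat shock gene HSPA1B went from 7.58 to 23.0 FPKM, but HSPA1A is nearly identical to it (10.7 and 17.4 FPKM), and how reads were split between the pair is uncertain. RBM15 and RBM33, both RNA-binding, were at 6.39 and 9.78 FPKM with DMSO and at 17.5 and 23.2 FPKM with THZ1. FBXW7, the ubiquitin ligase subunit that marks MYC and cyclin E for destruction, went from 4.84 to 11.2 FPKM, and TNRC6B, a silencing partner of Argonaute, from 5.44 to 12.9 FPKM. TNRC6B was at 2.27 FPKM with 200 nM. Of the 38 genes that rose, 14 were above 10 FPKM with DMSO and 6 were at 2 FPKM or less, where values are least certain.

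**Figure D2:**
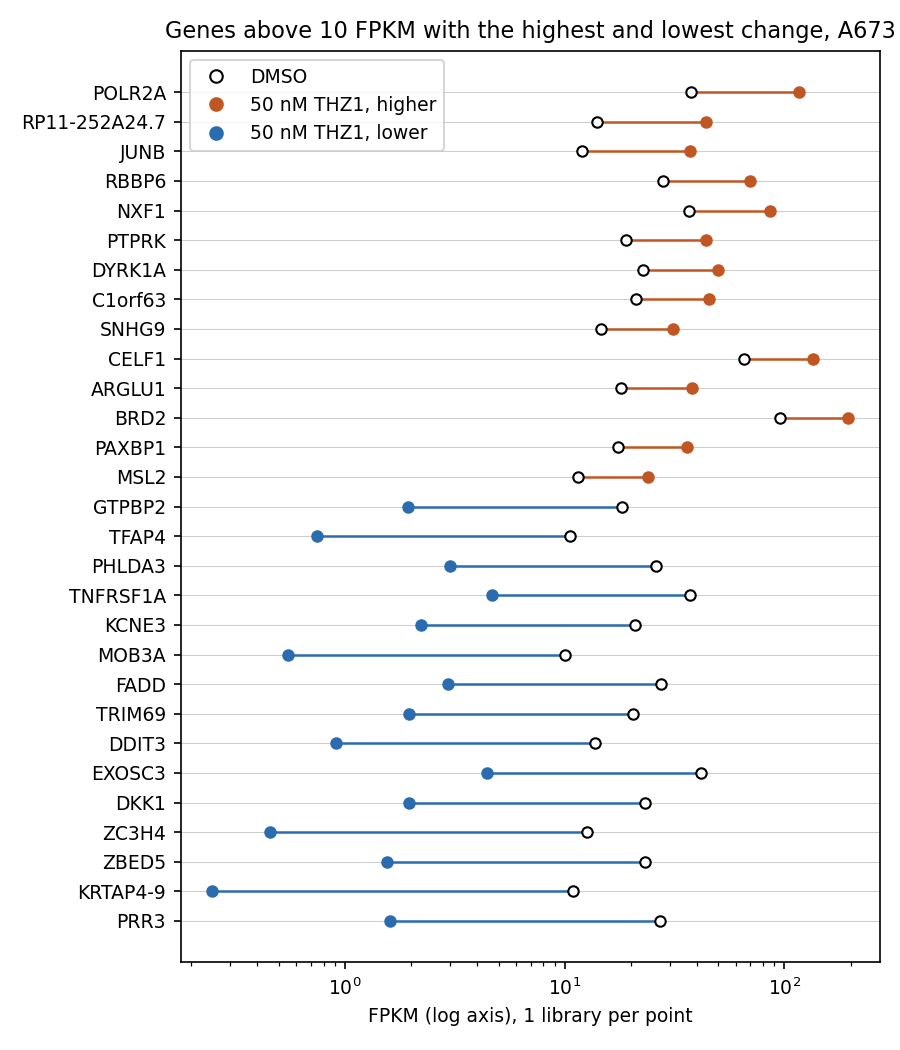
FPKM (log axis) of the 15 genes with the lowest and 14 genes with the highest log2 fold change among A673 genes above 10 FPKM with DMSO; open circles are DMSO and filled circles 50 nM THZ1, 1 library per point. The lowest genes ended between 0.250 and 4.66 FPKM, and POLR2A, the gene with the largest rise, went from 37.6 to 116 FPKM.

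Functions were read from 62 gene lists with 2369 distinct active genes, and each count is set beside the 15.9% of all active genes that fell. That share differs with level, at 23.0% between 5 and 10 FPKM with DMSO and 22.6% between 10 and 20 FPKM. The Mediator, Polycomb and WNT lists, for example, had median DMSO levels of 14.4, 15.3 and 15.4 FPKM. Shares within equal levels were computed for the ZNF list alone. In the transcription machinery, 6 of 10 genes of TFIIH and the CDK-activating kinase held within 1.5-fold. CDK7, the target of the drug, had 41.1 FPKM with DMSO and 26.4 FPKM with THZ1, and its partners CCNH (37.5 and 38.9 FPKM) and MNAT1 (46.4 and 44.1 FPKM) changed less. Of the same 10 genes 1 fell, GTF2H2, from 8.56 to 2.96 FPKM. Of 13 RNA polymerase II subunit genes, 1 fell (POLR2D, 41.0 to 18.5 FPKM) and 1 rose (POLR2A), and the others stayed within 2-fold. The super elongation complex and its partners had 0 of 24 members lower, and CDK12, CDK13 and their cyclin partners 0 of 7. Within the latter, CDK12 was at 9.25 and 5.50 FPKM, and cyclin L1 (CCNL1) at 23.6 and 44.1 FPKM.

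The inhibitory arm of P-TEFb moved in both directions. MEPCE, which caps the 7SK RNA, went from 34.4 to 6.16 FPKM, and LARP7, which binds its 3′ end, from 21.2 to 8.94 FPKM. HEXIM2 went from 2.15 to 0.189 FPKM while HEXIM1 rose. The kinase CDK9 was at 23.3 and 12.02 FPKM, and its cyclins CCNT1 and CCNT2 at 12.1 and 10.97 FPKM with DMSO and 17.3 and 18.8 FPKM with THZ1. These 3 stayed within 2-fold. Thus 3 of 8 members fell and 1 rose, and the same 3 fell in SKNMC. The rise of HEXIM1 lay just past the 2-fold line, at a log2 fold change of 1.007. Mediator, the bridge between activators and the polymerase, had 6 of 32 members lower (18.8%). MED22 went from 14.8 to 3.03 FPKM, MED8 from 15.7 to 3.96 FPKM and MED7 from 4.15 to 0.909 FPKM. MED13 and MED15 had higher values, at 12.4 and 19.1 FPKM and at 31.8 and 47.4 FPKM. TFIID and general factors had 2 of 23 lower (8.70%), GTF2E1 (9.10 to 1.06 FPKM) and TAF5 (9.10 to 1.81 FPKM). Integrator and 3′ end processing factors had 10 of 32 lower (31.2%) with a list median of -0.58. INTS5 went from 13.1 to 1.73 FPKM, CSTF2T from 12.4 to 2.11 FPKM and CSTF1 from 24.5 to 8.16 FPKM. In the same list RBBP6 rose, and CPSF6 and PCF11 had higher values, 57.8 and 95.8 FPKM and 10.8 and 19.3 FPKM.

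Among chromatin regulators, the Polycomb complexes, which silence developmental genes, had 8 of 29 members lower (27.6%). ASXL2 went from 6.67 to 1.58 FPKM, CBX6 from 29.0 to 9.62 FPKM and L3MBTL2 from 13.4 to 4.17 FPKM. The methyltransferase EZH2 held, at 41.4 and 47.1 FPKM, and RYBP and PCGF5 stood higher by less than 2-fold. Histone methylation and acetylation enzymes had 11 of 57 lower (19.3%), led by SUV39H1, a writer of heterochromatin, from 11.9 to 2.88 FPKM, SETDB2 from 2.56 to 0.411 FPKM and KAT5 from 20.03 to 7.40 FPKM. ASH1L rose from 5.76 to 13.2 FPKM. SWI/SNF, ARID and CHD remodelers had 4 of 43 lower (9.30%): SMARCAD1, DPF2, CHD1 and ARID3A. DPF2, for example, went from 37.7 to 13.7 FPKM, and ARID1A was at 20.7 and 29.9 FPKM.

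The ZNF list, the largest of the 62 lists, held the most falling genes, while by share the ZBTB and Fanconi lists described below stood higher. Of 348 active ZNF genes, which encode zinc finger proteins and many of them KRAB repressors, 141 fell (40.5%), 0 rose, and 316 had a lower value. ZNF740 went from 11.2 to 1.35 FPKM, ZNF142 from 12.3 to 1.62 FPKM and ZNF7 from 17.9 to 2.82 FPKM. ZNF587B was the member with the highest log2 fold change, 0.85, at 3.25 and 6.66 FPKM. The share did not follow the large cluster on chromosome 19: 60 of 151 ZNF genes there fell (39.7%) and 81 of 197 on other chromosomes (41.1%). Within equal DMSO levels the contrast with other genes was kept. Of ZNF genes between 5 and 10 FPKM 50.0% fell, against 21.8% of other active genes, and between 10 and 20 FPKM 48.6% against 22.2%. The related ZBTB, ZSCAN and ZKSCAN genes had 24 of 54 lower (44.4%), with ZBTB4 going from 6.44 to 1.26 FPKM and ZBTB48 from 6.67 to 1.38 FPKM. ZBTB34 rose, from 3.79 to 12.1 FPKM. The medians of both families were -0.81 and -0.82, which put them at -0.53 and -0.55 from the median of all active genes.

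Immediate early genes, which respond to growth factors within minutes and whose mRNAs decay fast, moved apart. Of 37 active members 10 fell and 2 rose. PPP1R15A went from 24.9 to 4.75 FPKM, FOSL1 from 19.7 to 4.38 FPKM and ID4 from 57.1 to 16.3 FPKM, and JUND, another AP-1 subunit, from 86.8 to 30.0 FPKM. JUNB rose, as did IER5L, from 9.42 to 26.6 FPKM. FOS was at 8.54 and 17.1 FPKM, short of 2-fold with the pseudocount. FOSL1 had a log2 fold change of 0.14 in SKNMC, against -1.95 here. HOX genes, which set position along the body axis, had 5 of 21 lower (23.8%), such as HOXD8, from 38.3 to 11.4 FPKM, and HOXD13, from 43.2 to 20.3 FPKM. SOX genes had 3 of 10 lower, with SOX1 going from 11.8 to 2.53 FPKM. Of these 3, 2 were active in SKNMC and 0 were also lower there. Of 14 KLF and SP genes 3 fell (KLF15, KLF2 and SP2), and of 16 active ETS genes 2 fell (ERF and ELF4). The MYC network had 1 of 12 lower, MLX, from 15.6 to 2.73 FPKM. MYC itself was at 101 and 90.9 FPKM, a log2 fold change of -0.15 whose sign turned with the 75th percentile scaling.

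Genes that the Ewing sarcoma program turns on responded unevenly. Of 37 active genes known as EWS-FLI1 activated, 7 fell (18.9%), and the list median was -0.29, next to -0.27 for all active genes. NR0B1, an orphan nuclear receptor and a direct EWS-FLI1 target, went from 58.6 to 17.6 FPKM. APCDD1, a WNT inhibitor at the cell surface, went from 173 to 65.4 FPKM. The mitotic kinases AURKA and AURKB went from 61.2 to 17.7 FPKM and from 72.4 to 26.2 FPKM. NPY5R and PAX7, at 5.11 and 5.86 FPKM with DMSO, fell to 1.23 and 2.19 FPKM. Other genes of the program stayed within 2-fold. The surface antigen CD99 was at 504 and 646 FPKM, CCND1 (cyclin D1) at 711 and 461 FPKM, and the homeobox gene NKX2-2 at 14.8 and 9.71 FPKM. MEIS1, a homeobox factor that the study examines, went from 9.72 to 2.29 FPKM. FLI1 went from 31.5 to 14.955 FPKM, a log2 fold change of -1.03 that was -0.79 with the 75th percentile scaling, and EWSR1 was at 134 and 132 FPKM. Reads of the fusion add to the values of FLI1 and EWSR1, and fused and normal transcripts cannot be separated in values per gene. At 200 nM FLI1 stood at 4.26 FPKM and NKX2-2 at 3.60 FPKM. Of 22 active genes known as EWS-FLI1 repressed, 4 also fell (18.2%), among them DKK1, PHLDA1 (6.49 to 2.37 FPKM) and CTGF (241 to 113 FPKM). The last 2 had log2 fold changes of -0.33 and -0.05 in SKNMC. Of genes near super-enhancers shared by Ewing lines, 22 of 139 active members fell (15.8%), a share close to the 15.9% of all active genes. The members' median DMSO level was 38.7 FPKM, against 14.1 FPKM for all active genes. Of all active genes 14.9% fell between 20 and 50 FPKM and 6.25% between 50 and 100 FPKM. No share matched for level was computed for this list. In SKNMC 31 of 141 active members were lower (22.0%), against 15.8% of all active genes there. The members ranged from ZC3H4 and MEPCE over ABHD6 (79.8 to 17.4 FPKM) to BRD2, which rose.

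Among signalling lists, NF-κB, MAPK feedback and WNT genes had the highest shares of falling members. In the WNT pathway 8 of 29 members fell (27.6%). The receptors FZD8, FZD1 and FZD2 went from 18.6, 99.6 and 11.6 FPKM to 4.76, 34.3 and 4.31 FPKM, alongside the antagonists DKK1 and APCDD1. β-Catenin (CTNNB1) was at 44.9 and 61.8 FPKM. NF-κB factors and feedback inhibitors had 7 of 18 lower (38.9%), including the subunits RELA, from 39.2 to 15.8 FPKM, and RELB, from 3.83 to 1.32 FPKM, the kinase IKBKB, from 12.6 to 5.20 FPKM, and the adaptor TRAF2, from 10.9 to 2.84 FPKM. NFKB1 held at 7.28 and 7.89 FPKM. In all, 10 of the 18 stayed within 1.5-fold, and the list median was -0.36, against -0.27 for all active genes. Of the 7 falling NF-κB genes, 3 were also lower in SKNMC, where RELA and IKBKB had log2 fold changes of -0.65 and -0.27. Phosphatases that switch off MAP kinases fell in 4 of 13 feedback genes, namely DUSP1 (11.7 to 2.71 FPKM), DUSP16, DUSP5 (19.99 to 7.84 FPKM) and DUSP7. SPRY4 and SPRED1 of the same list had higher values, by less than 2-fold. The list of Hippo pathway genes and YAP targets had 4 of 23 lower (17.4%), with ANKRD1 going from 23.7 to 2.79 FPKM and AMOTL2 from 50.6 to 18.1 FPKM. YAP1 was at 58.9 and 71.7 FPKM. In the insulin and IGF list 2 of 26 fell, PIK3R1 (12.3 to 3.10 FPKM) and IRS1 (11.1 to 3.77 FPKM). TGF-β and BMP genes had 3 of 23 lower (13.0%), NOTCH genes 2 of 21 (9.52%) and JAK, STAT and SOCS genes 2 of 21 (9.52%).

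Among the lists of cell cycle and DNA repair genes, the Fanconi and E2F lists had the highest shares of falling members. Of 51 active genes of the Fanconi, homologous recombination and checkpoint list, 22 fell (43.1%) and 46 had a lower value. FANCF, a subunit of the Fanconi core complex, went from 8.46 to 1.08 FPKM. ATRIP, the partner of the checkpoint kinase ATR, went from 4.78 to 0.290 FPKM. PALB2, which brings BRCA2 to breaks, went from 9.35 to 1.63 FPKM, and RAD52 from 4.61 to 0.418 FPKM. All 4 were left with 17.4% of their DMSO value or less. FANCA (39.0 and 47.9 FPKM) and RNF168 (8.11 and 11.8 FPKM) had higher values. Excision, mismatch and end-joining genes had 8 of 45 lower (17.8%), such as PMS2, from 5.68 to 1.13 FPKM, and the glycosylase TDG, from 35.8 to 11.9 FPKM. Levels of XRCC6 (309.5 and 361 FPKM) and PARP1 (107 and 126 FPKM) held. Of 15 E2F and cyclin E genes 6 fell (40.0%), with E2F5 going from 25.4 to 4.61 FPKM, E2F8 from 11.8 to 2.16 FPKM and CCNE2 from 8.09 to 3.04 FPKM. The cyclin D, CDK4/6 and RB axis had 0 of 11 lower. DNA replication genes had 13 of 53 lower (24.5%), led by GINS1 (33.6 to 4.75 FPKM) and the licensing factor CDT1 (40.5 to 10.6 FPKM), while TYMS held at 261 and 298 FPKM. Mitotic genes had 14 of 60 lower (23.3%), among them PLK4, which starts centriole duplication, from 27.5 to 6.62 FPKM, and the centromeric histone CENPA, from 35.7 to 9.28 FPKM. CCNB2 and CENPF were at 73.3 and 82.7 FPKM and at 27.7 and 34.0 FPKM.

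Regulators of apoptosis had 9 of 28 members lower (32.1%), with both killers and survival genes among them. FADD, the initiator CASP2 (18.2 to 7.56 FPKM) and the pore-forming BAK1 (15 to 6.00 FPKM) promote death, and BCL2L2 (14.6 to 4.51 FPKM) opposes it. The BH3-only genes PMAIP1, BID and BAD held, at 34.9 and 37.8 FPKM, 38.6 and 38.4 FPKM, and 27.8 and 28.4 FPKM. Of 23 active p53 pathway genes 4 fell (17.4%), including MDM2, from 18.7 to 8.14 FPKM, and BTG2, from 3.92 to 0.738 FPKM. CDKN1A (p21) was at 11.5 and 10.8 FPKM.

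**Figure D3:**
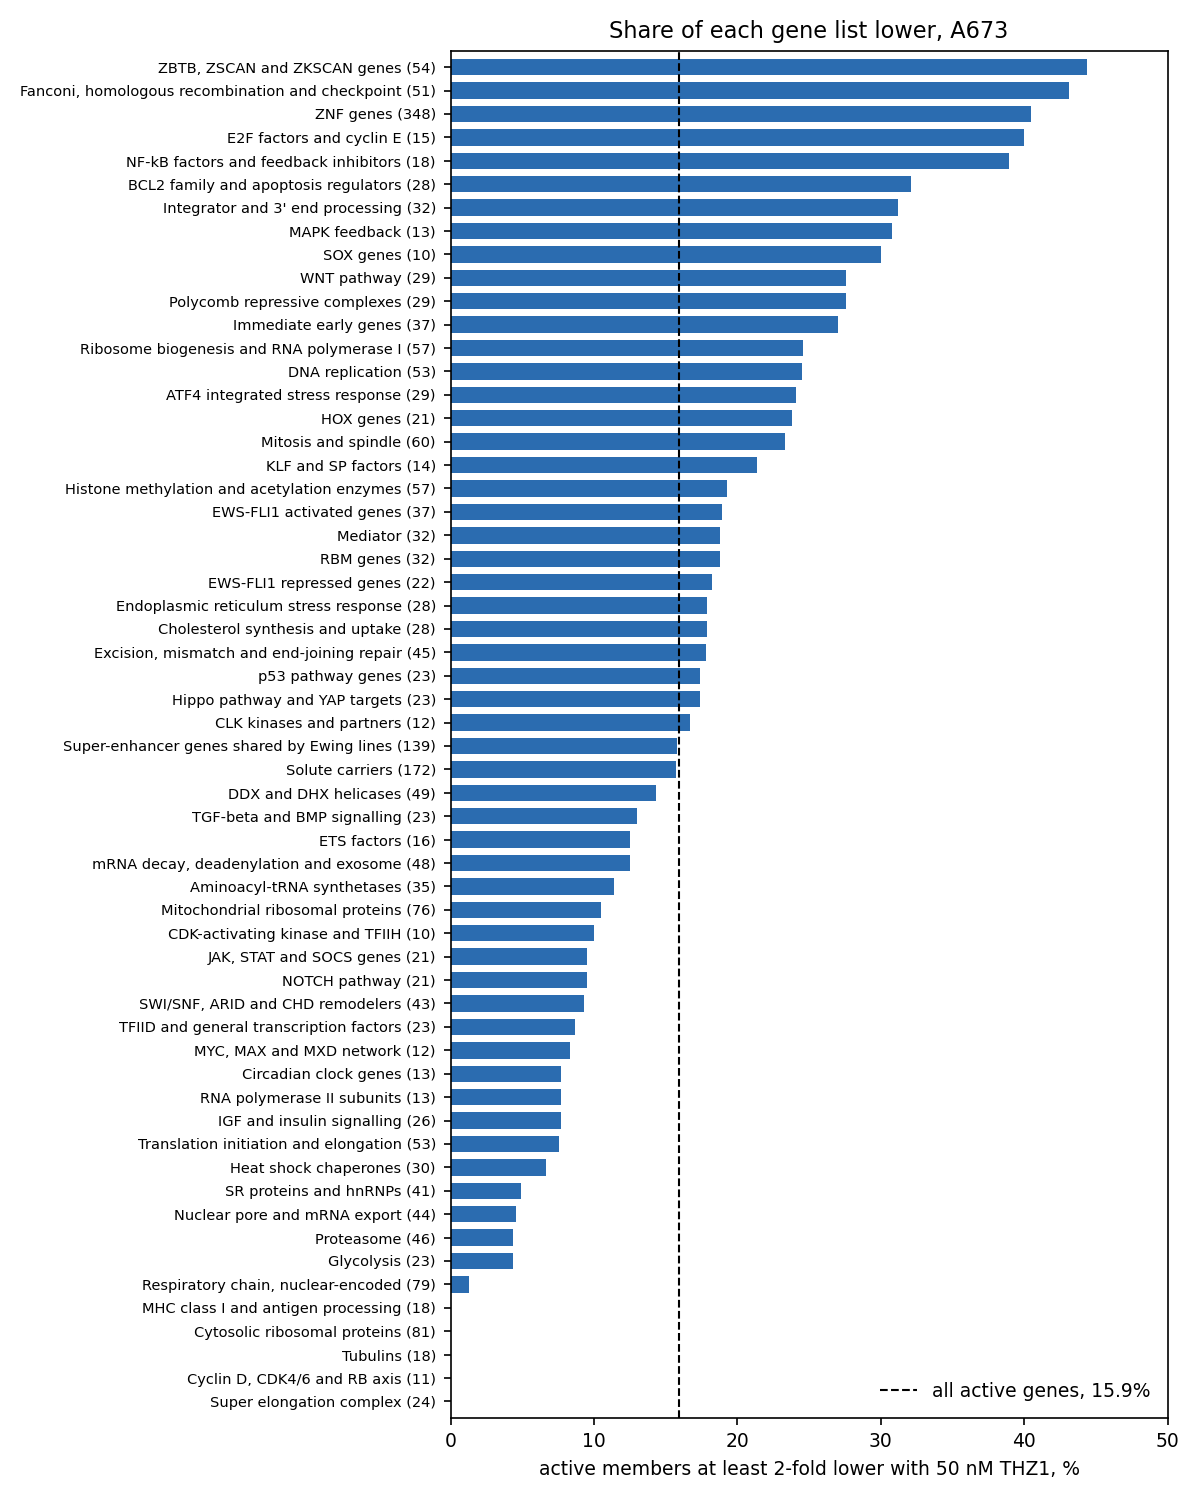
Share of active members at least 2-fold lower with 50 nM THZ1 (x axis, %) for the gene lists with 10 or more active members, whose number is given in brackets; the dashed line is the 15.9% of all active genes. The ZBTB, Fanconi, ZNF and E2F lists reach 40.0% to 44.4%, and 5 lists have 0 lower.

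RNA processing genes moved in both directions. In the CLK and partner list of 12 genes, 2 fell and 4 rose, against 0.343% of all active genes that rose. The list was chosen with earlier results of these data known, so its count of rises may partly reflect that choice. The splicing kinase CLK2 went from 18.2 to 6.54 FPKM and DYRK1B from 3.98 to 1.33 FPKM, whereas DYRK1A, C1orf63, ARGLU1 and PAXBP1 rose. Those 4 rises lay close to the 2-fold line, with log2 fold changes from 1.01 (PAXBP1) to 1.09 (DYRK1A). With the ribosomal protein scaling they ran from 0.78 to 0.86, short of the line. In the RBM family of 32 genes, 6 fell (18.8%) and 2 rose, RBM15 and RBM33. RBM15B, a near relative of RBM15, went the other way, from 11.3 to 2.98 FPKM, and RBM23 from 34.7 to 8.45 FPKM. SR proteins and hnRNPs had 2 of 41 lower (4.88%), and both are highly expressed: HNRNPDL went from 144 to 43.7 FPKM and SRSF3 from 164 to 63.5 FPKM. SRSF1 stood at 240.2 and 134 FPKM, and SRRM2 and PNISR at higher values, 118 and 209 FPKM and 35.3 and 70.2 FPKM. mRNA decay genes had 6 of 48 lower (12.5%). With EXOSC3, the exosome subunits EXOSC4 (65.3 to 20.2 FPKM) and EXOSC6 (21.2 to 9.82 FPKM) fell. Nuclear pore and export genes had 2 of 44 lower (4.55%), NUP62 (48.4 to 12.6 FPKM) and NUP37 (29.5 to 12.9 FPKM), beside the rise of NXF1. DDX and DHX helicases had 7 of 49 lower (14.3%), with DHX32 going from 16.6 to 2.83 FPKM.

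Most genes of the ribosome, the respiratory chain and the proteasome stayed within 1.5-fold, as did 66.4% of all active genes. Of 81 active cytosolic ribosomal protein genes 0 fell and 80 stayed within 1.5-fold, with a median of 0.21, which the scaling to these same genes takes to -0.02 by construction. Their share of the listed FPKM was 13.9% with DMSO and 16.4% with THZ1, and their median DMSO level was 729 FPKM. Of all active genes above 500 FPKM, 98.5% stayed within 1.5-fold and 0 of 130 fell, with the same median of 0.21. That group contains the ribosomal protein genes above 500 FPKM, so it is not a separate comparison. Other genes of that level were not counted apart. Many ribosomal protein genes have processed copies in the genome, so single values are uncertain. Of 79 nuclear-encoded respiratory chain genes 77 stayed within 1.5-fold and 1 fell, NDUFV3, from 17.4 to 5.57 FPKM. The proteasome had 42 of 46 genes within 1.5-fold and 2 lower, and both of these, PSMG2 (58.8 to 27.6 FPKM) and PSMG3 (37.8 to 17.6 FPKM), encode assembly chaperones, not subunits. The respiratory chain and proteasome lists had median DMSO levels of 116 and 115 FPKM. Of all active genes between 100 and 500 FPKM, 93.8% stayed within 1.5-fold. All 8 CCT chaperonin genes and all 18 active genes of MHC class I presentation stayed within 1.5-fold, as with B2M, at 2371 and 3115 FPKM. Glycolysis had 20 of 23 within 1.5-fold and 1 lower, PFKFB3, a regulator of glycolytic flux, from 44.1 to 17.5 FPKM. Of 53 translation factors 4 fell (7.55%), and EIF5, the factor that triggers GTP hydrolysis at the start codon, went from 178 to 54.2 FPKM.

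Ribosome biogenesis and mitochondrial ribosomal genes had larger shares of falling members than the cytosolic ribosome, but they also had lower DMSO levels. Their list medians were 43.6 and 47.6 FPKM, against 729 FPKM for the cytosolic ribosomal proteins. Of all active genes 15.9% fell, and of those between 20 and 50 FPKM 14.9%. Whether the lists differ at equal level was not tested. Ribosome biogenesis factors had 14 of 57 lower (24.6%), such as RRS1, from 43.6 to 12.5 FPKM, NIP7, from 54.8 to 18.1 FPKM, and GNL3, from 56.7 to 20.1 FPKM. The abundant snoRNP proteins FBL and NOP56 of the same list held, at 264 and 313 FPKM and at 228 and 285 FPKM. Mitochondrial ribosomal proteins had 8 of 76 lower (10.5%), with MRPL36 going from 65.1 to 19.4 FPKM. Among aminoacyl-tRNA synthetases 4 of 35 fell (11.4%), HARS2, PARS2, MARS2 and AARS2, and all 4 serve the mitochondrion. HARS2 went from 17.1 to 4.34 FPKM and PARS2 from 2.24 to 0.0931 FPKM.

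The stress and lipid lists were mixed. Of 29 active ATF4 response genes 7 fell (24.1%), among them DDIT3, CEBPB (56.3 to 16.9 FPKM), TRIB3 (17.7 to 5.10 FPKM) and CHAC1 (4.79 to 0.997 FPKM). The enzymes ASNS and PHGDH of the same list were at 47.1 and 58.4 FPKM and at 139.6 and 177 FPKM. Endoplasmic reticulum stress genes had 5 of 28 lower (17.9%), with XBP1 going from 30.3 to 4.66 FPKM and HERPUD1 from 22.7 to 8.38 FPKM, while the resident chaperones HSP90B1 (405 and 562 FPKM) and PDIA3 (266 and 344 FPKM) had higher values. Of 30 heat shock genes 2 fell, DNAJB1 (48.0 to 14.3 FPKM) and DNAJB9, and HSPA8, the constitutive chaperone, was at 1618 and 923 FPKM. Cholesterol genes had 5 of 28 lower (17.9%), including INSIG1, which holds back the sterol-sensing machinery, from 22.9 to 7.15 FPKM, and mevalonate kinase MVK, from 11.2 to 3.99 FPKM. Solute carriers matched the background, with 27 of 172 lower (15.7%), and the amino acid carrier SLC38A2 went from 268 to 96.8 FPKM. Clustered histone genes, of which 8 were active, had 0 lower and 1 higher, HIST1H2AC, from 7.01 to 15.3 FPKM, though these copies resemble each other closely. The circadian list had 1 of 13 lower, CLOCK, from 3.56 to 1.14 FPKM.

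**Figure D4:**
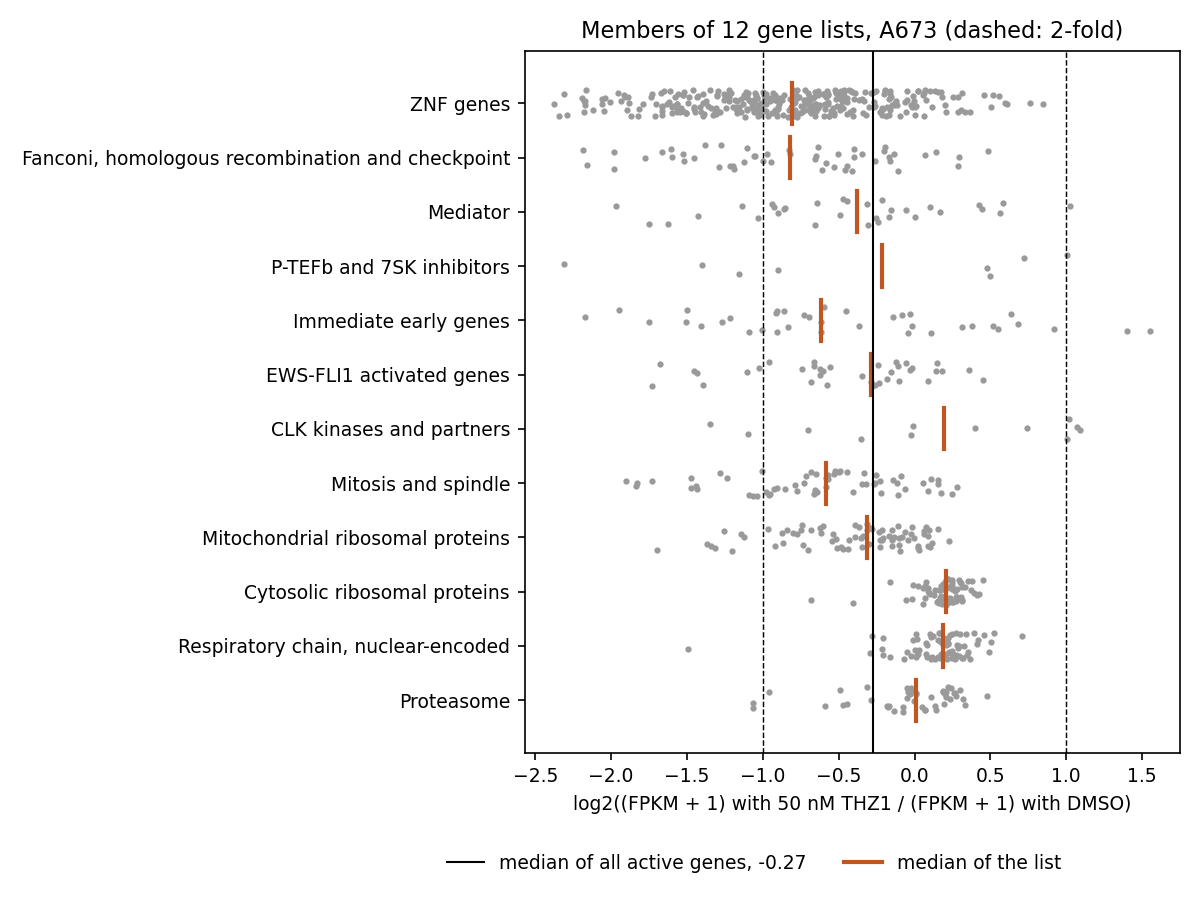
Log2 fold change of each active member (grey points, 1 gene each, spread vertically at random) of 12 gene lists between 50 nM THZ1 and DMSO in A673; orange bars are list medians, the black line is the median of all active genes (-0.27) and dashed lines mark 2-fold. Members of the ZNF list spread over the range from -2.37 to 0.85 and the ribosomal protein genes crowd together around 0.21 in the values as deposited.

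The share of falling genes differed with exon number, gene span and level. Of active genes whose longest annotated transcript has 1 exon, 127 of 399 fell (31.8%), and the share went down in every step to 81 of 1311 (6.18%) of genes with more than 20 exons. By the span of the gene in hg19, 23.7% of genes up to 5 kb fell and 3.50% of genes over 200 kb. Exon number and span go together, since the median span was 3.21 kb for genes with 1 exon and 99.3 kb for those with more than 20. Among genes of 10 to 50 FPKM with DMSO, the share went from 36.7% with 1 exon to 7.58% with more than 20, and from 31.3% up to 5 kb to 6.20% over 200 kb. The group with 1 exon in the longest transcript also had the highest share of rising genes of any exon group, 7 of 399 (1.75%). That compares with 0.343% of all active genes, and JUNB, IER5L, HSPA1B and HEXIM1 were among the 7. The group is not limited to genes without introns, since other transcripts of a gene may have more exons. MED26, also among the 7, has a span of 54.2 kb. By the length of the longest transcript the share of falling genes did not follow this order, at 8.04% up to 1 kb, 19.7% from 2 to 4 kb and 8.18% over 8 kb. By level, the share was highest between 5 and 10 FPKM (23.0%), 2.31% between 100 and 500 FPKM and 0 of 130 genes above 500 FPKM. The low share between 1 and 2 FPKM (6.19%) is limited by the pseudocount, since a gene there reaches the 2-fold line only near 0, and was 31.5% with a pseudocount of 0.1, then the highest of any level. Of active lincRNA genes 20.2% fell, against 15.8% of protein-coding genes. Exon numbers came from GENCODE transcripts found for 98.4% of active genes, and the exon bins were chosen after values had been seen.

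**Figure D5:**
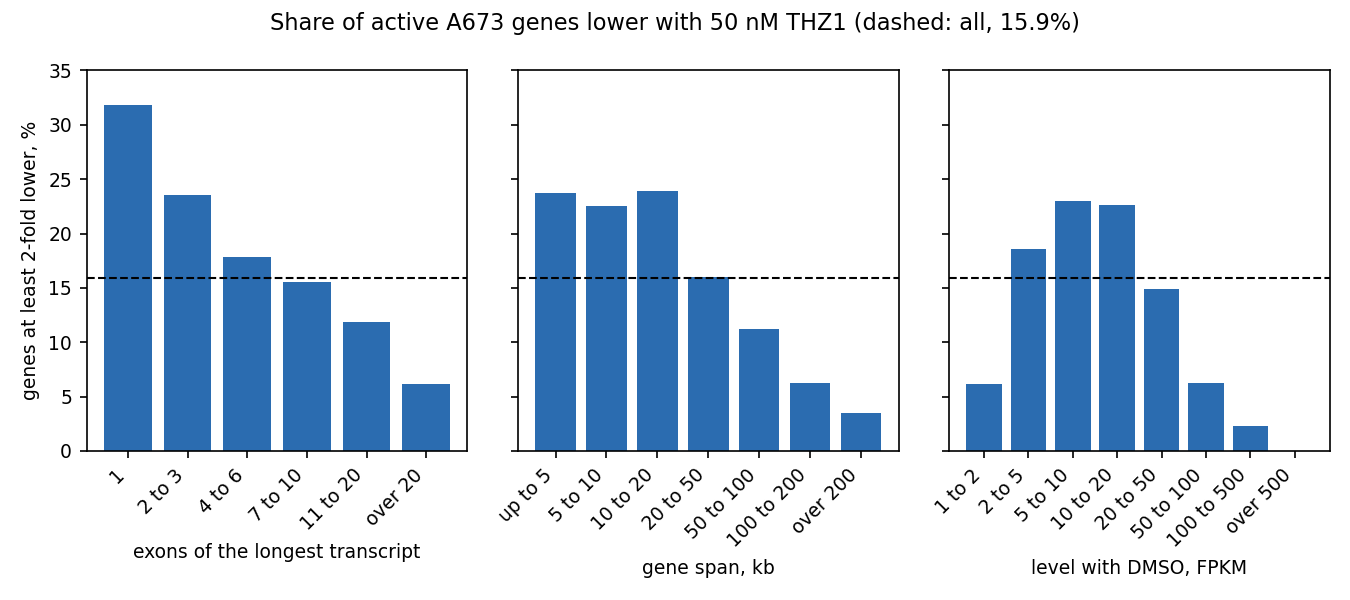
Share of active A673 genes at least 2-fold lower with 50 nM THZ1 (y axis, %) by exons of the longest transcript, by gene span in kb and by FPKM with DMSO; the dashed line is the share of all active genes, 15.9%. The bars go from 31.8% to 6.18% with exon number and are highest at 5 to 10 FPKM, and there is no bar above 500 FPKM because 0 of 130 genes fell.

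Promoters were available for 9140 of the active genes (82.5%). The letters CCGGAAG, the core that ETS factors of the GABP type bind, were found on either strand in 26.0% of the promoters of genes that fell, in 21.3% of all active promoters and in 42.1% of ZNF promoters, against 10.3% of all promoters in the table. They were also found in 32.3% of cytosolic ribosomal protein promoters and 29.2% of respiratory chain promoters, both above the share of the falling genes, although 0 and 1 genes of these lists fell. TATA boxes (TATAAA) were found in 6 of 32 promoters of genes that rose (18.8%), JUNB among them, in 4.49% of those of genes that fell and in 5.14% of all active promoters. GC boxes were present in 81.2%, 70.2% and 71.4% of these 3 groups, and CCAAT boxes in 43.8%, 40.8% and 37.4%. Motifs like the cyclic AMP response element (TGACGTC) were present in 9.38%, 6.28% and 6.00%, and E-boxes (CACGTG) in 6.25%, 10.5% and 10.5%. The median GC content of the promoters was 69.2% for genes that rose, 65.0% for genes that fell and 65.7% for all active genes. A match shows only that the letters are present in the window.

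The other Ewing sarcoma line, whose libraries are separate, had a like number of falling genes at 50 nM, with 1875 of 11896 lower (15.8%) and 56 higher (0.471%). Of the 1758 genes lower in A673, 1697 were active in SKNMC, and 1201 were lower in both, which is 70.8% of the A673 genes that were active in SKNMC and 64.1% of the SKNMC list. Of the 38 higher genes, 36 were active in SKNMC and 23 were higher in both (63.9% and 41.1%). POLR2A had a log2 fold change of 1.69 in SKNMC and JUNB of 1.56, against 1.60 and 1.55 in A673. The ZNF, Fanconi and ZBTB lists had 34.0%, 35.3% and 41.4% of active members lower in SKNMC. In contrast, the NF-κB list had 16.7% lower there and 38.9% in A673, and the immediate early list 13.5% lower there and 10 of 37 active members in A673. No test of these differences was possible. The single-exon share of 30.3% and the share of 4.84% above 20 exons in SKNMC lay close to those of A673.

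At 200 nM the comparison with A673 shares the same DMSO library, so values are set side by side only. CDK7 was at 41.1 FPKM with DMSO, 26.4 with 50 nM and 9.57 FPKM with 200 nM. CCNT1 was at 12.1, 17.3 and 3.12 FPKM. Genes with a higher value at the low dose and a lower one at the high dose also included MED26, at 4.95, 11.1 and 1.999 FPKM. Among the 10 genes with the highest DMSO levels, GAPDH was at 3256, 4315 and 4697 FPKM and HSPA8 at 1618, 923 and 722 FPKM. The ZNF list had a median of -0.81 at 50 nM and -1.18 at 200 nM, and the ribosomal proteins of 0.21 and 0.37.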

How the data were processed

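RNA-Seq of A673 cells with DMSO and with 50 nM THZ1 was analysed, 1 library each, with groups taken from the sample labels. Paired-end reads of 100 bp from TruSeq libraries were aligned by the authors to hg19 with STAR, and they deposited FPKM values for Ensembl 75 genes. Their methods name StringTie and the submitters' processing notes Cufflinks, so the estimator is uncertain. The table's title speaks of average expression although the labels give 1 library per condition. Other biotypes than protein-coding and lincRNA genes were not analysed here. The 4 columns of the authors' log2 fold changes were not used.

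Fold changes were computed from the deposited FPKM as log2((FPKM + 1) / (FPKM + 1)) in Python 3.11.15 with pandas 2.3.3, over genes above 1 FPKM with DMSO. No test was possible with 1 library a side. Depth is unknown from FPKM. The most frequent ratio of low values put the THZ1 library at about 96.5% of the DMSO library, but only 1.01% of 2663 low genes sat at that ratio.

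The comparison, the gene lists and the named genes were chosen with earlier results of these data known, and the super-enhancer list is the study's. Named genes were, among those above 10 FPKM with DMSO and above 0 with THZ1, the 15 lowest and 15 highest (some genes that these rules name are not reported here), genes the study turns on, the 10 highest by level, and in each list the 3 lowest and 3 highest members. Some further list members, the rising genes below 10 FPKM, the exon bins and the printed promoters were chosen after their values were seen. Of 3050 symbol entries of the lists, 3047 matched a listed gene. Exon numbers came from GENCODE 44 on GRCh37 and promoters from RefSeq on GRCh38.p14. Scripts were tested on simulated data with 200 changed genes. Gene counts and list shares were repeated with 3 scalings, a pseudocount of 0.1, other fold thresholds (1.5-fold alone for lists) and other rules for which genes are active, and named genes and the groups by exon number, span and level with the scalings and the pseudocount.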

Additional observations from a re-analysis of the deposited data

Results flagged for a closer look

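The 49 genes compared here are the lowest and highest genes above 10 FPKM, those the study turns on and the highest by level. Between A673 and SKNMC at 50 nM THZ1, 3 of them had log2 fold changes of opposite sign. Each condition has 1 library, so the difference was not tested. Genes named only as list members are outside this count, and among them FOSL1 also had opposite signs, as given above. EWSR1 was at -0.0197 in A673 and 0.08 in SKNMC, and ACTG1 at -0.0381 and 0.06. IGF2BP1, an RNA-binding protein that stabilises mRNAs, was at 0.21 in A673 and -0.41 in SKNMC. The signs of all 3 in A673 changed with the scaling. EEF1A1 is not counted as opposite, since it is listed at 0 in both SKNMC libraries with THZ1. It is among the highest genes of every other library, and no fold is given for SKNMC.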

How the results depend on the processing

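No paired analysis was possible because each condition has 1 library, and for the same reason no library could be left out. No named gene that passed the 2-fold line changed sign under the alternatives run. The number of falling genes was 2395 with a pseudocount of 0.1 (21.6% of active genes), 1693 with a common sum (15.3%), 1221 of 11077 with the 75th percentile scaling and 2362 with the ribosomal protein scaling (21.3%), 3527 at 1.5-fold and 152 at 4-fold. The number of rising genes was 60 with a pseudocount of 0.1, 24 among genes above 5 FPKM, 61 with active genes set by the mean of both libraries, 85 and 18 with the 75th percentile and ribosomal protein scalings, and 197 at 1.5-fold. The median of active genes was -0.31, -0.24 and -0.25 under the first 3 of these settings, and -0.26, -0.0552 and -0.47 with the common sum, 75th percentile and ribosomal protein scalings.

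Against these shares of all active genes, the ZNF share was 57.5% with a pseudocount of 0.1, 31.0% and 47.1% with the 75th percentile and ribosomal protein scalings, and 64.9% at 1.5-fold. The ZBTB share was 59.3% with a pseudocount of 0.1, the Fanconi share 29.4% with the 75th percentile scaling and the super-enhancer share 23.0% with the ribosomal protein scaling. At 1.5-fold, where 31.8% of all active genes were lower, the shares were 68.5% for ZBTB, 60.8% for Fanconi, 33.8% for super-enhancer, 50.0% for Integrator, 54.1% for immediate early, 40.5% for EWS-FLI1 activated and 73.3% for E2F genes. The share of falling genes by exon number went from 41.4% (1 exon) to 10.1% (over 20) with a pseudocount of 0.1, from 26.1% to 3.43% with the 75th percentile scaling and from 38.8% to 11.5% with the ribosomal protein scaling, alternatives chosen after seeing the data. The promoter motifs and the counts shared with SKNMC were not recomputed. The scalings and thresholds move these values by construction. FPKM without counts gives no interval for single genes, and low genes are the least certain.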
